A study of Mus musculus with 4 samples.

Results

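The genes described here encode the subunits of the 5 complexes of oxidative phosphorylation, measured in Paneth cells, secretory cells full of granules that sit at the bottom of crypts in the small intestine. They were taken as every gene whose probe sets carry a single symbol of the form Ndufa, Ndufb, Ndufc, Ndufs or Ndufv with a number, Sdha to Sdhd, Uqcr, Cyc1, Cox4 to Cox8 with a suffix, or Atp5. Assembly factors were left out. This gave 82 of 18193 genes and 165 of 34945 probe sets with a single symbol. Of the 82, 35 belong to complex I, 4 to complex II, 9 to complex III, 17 to complex IV and 17 to complex V. For each gene the probe set with the highest mean over all arrays, its brightest, was used. Murine cells were isolated by laser capture, and their amplified RNA was put on 4 arrays, 2 for Atg16-hypomorph and 2 for wildtype. Both groups share a mixed C57BL/6 - 129ola strain; the labels state neither age nor sex, nor how many animals or cells were pooled. A hypomorph has an allele of reduced function, here in the gene for a protein that autophagosomes need to form. Whether replicate arrays stand for different animals is not stated, so a p-value here reflects only the scatter among these 4 arrays, which may be technical.

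Oxidative phosphorylation is the final stage of respiration in the inner mitochondrial membrane. Complexes I and II pass electrons from NADH and succinate to ubiquinone, complex III passes them on to cytochrome c, and complex IV reduces oxygen. Complexes I, III and IV pump protons as they do so, and complex V, the ATP synthase, lets the protons back to make ATP. Most subunits are encoded in the nucleus and imported, and only these are considered here. Damaged mitochondria can be removed by autophagy, the process that Atg16l1 serves.

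Values are deposited linear intensities. Each difference is the hypomorph mean minus the wildtype mean of log2(intensity + 32), a scale on which changes of dim genes come out too small. A gene is called higher or lower at an adjusted p under 0.05, two-sided, with Benjamini-Hochberg adjustment over all 22519 probe sets tested in limma. Only probe sets at or above the median brightness were tested, which left 77 of the 82 subunits. Atg16l1 measured 966 and 995 on the hypomorph arrays, against 1335 and 1183 on the wildtype arrays (limma, log2 difference -0.35, SE 0.10, adjusted p = 0.102). The labels do not locate this probe set against the altered allele, so it does not check the genotype. The Paneth cell products Lyz1, at 14561 and 15097 in hypomorph and 15481 and 16021 in wildtype, and Mmp7, at 8463 and 9486 in hypomorph and 9063 and 9314 in wildtype, were bright on every array. Of 10 Paneth markers tested, limma called 3 higher, Mptx1, Reg3g and Reg3a, but 1 to 2 higher without single arrays. The summed intensity of 15 fat cell markers was 33322 to 33582 in hypomorph and 10770 to 10985 in wildtype. That of 16 enterocyte markers was 32227 to 33673 in hypomorph and 21847 to 22420 in wildtype. Of the markers tested, 9 of 10 and 8 of 13 were called higher, with the same counts without each array in turn. The brown fat gene Ucp1 was at 7.95 and 8.51 in hypomorph and 10.8 and 3.56 in wildtype. Of 9 enteroendocrine markers 5 were called lower, and 3 without wildtype replicate 1. Of 8 fibroblast markers 4 were called higher, but 1 to 3 without single arrays. Of 7 blood and immune markers 2 were called higher, Gzma and Gzmb. Of 9 stem or cycling cell markers 2 were called lower, and 0 without wildtype replicate 1. Limma called 0 of 7 goblet, 8 smooth muscle and 5 endothelial markers, with 4, 1 and 2 at an unadjusted p under 0.05. Among all tested genes it called 2.53% higher and 1.70% lower, and 21.7% had an unadjusted p under 0.05. The arrays differed in markers of other cell types, and the part of this in any subunit's value was not tested. In tissue cut this way, fewer cells of a type and less RNA per cell cannot be told apart. Xist, the noncoding RNA that coats an inactive X, was at 4414 and 4510 in hypomorph and 18.0 and 25.6 in wildtype. The Y-linked Eif2s3y was at 1473 and 1465 in hypomorph and 1771 and 1866 in wildtype, so both groups held RNA of a Y-linked gene. Kdm5d, also Y-linked, was at 232 and 237 in hypomorph and 372 and 405 in wildtype (limma, log2 difference -0.65, adjusted p = 0.035). The groups thus differed in sex-linked RNA, and in any subunit's difference this cannot be told apart from genotype. The 2 X-linked subunits tested, Ndufa1 and Ndufb11, had log2 differences of 0.011 and -0.0096.

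The subunits as a group differed little between hypomorph and wildtype Paneth cells. Of 77 tested, 1 was called higher and 2 lower in hypomorph. Atp5e, the epsilon subunit of the ATP synthase, was called higher. Cox7c, a small subunit of cytochrome c oxidase, and Sdhc, a membrane anchor of succinate dehydrogenase, were called lower. Over all 11577 tested genes, 2.53% were called higher and 1.70% lower. The median log2 difference was 0.013 over the subunits and -0.024 over all genes, and the median size of the difference, ignoring its sign, was 0.060 over the subunits and 0.15 over all genes. For 67 of the 77 the 95% interval of the difference lay within 0.5 either side of 0 on the log2 scale, as it did for 58.4% of all genes. These shares varied with brightness. At a mean intensity of 5000 or more they were 100% of subunits and 98.3% of all genes. From 1000 to 5000 they were 90.5% and 86.4%, and below 1000 they were 33.3% and 42.7%. At an unadjusted p under 0.05 there were 10 subunits, or 13.0%, against 21.7% of all genes.

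**Figure D1:**
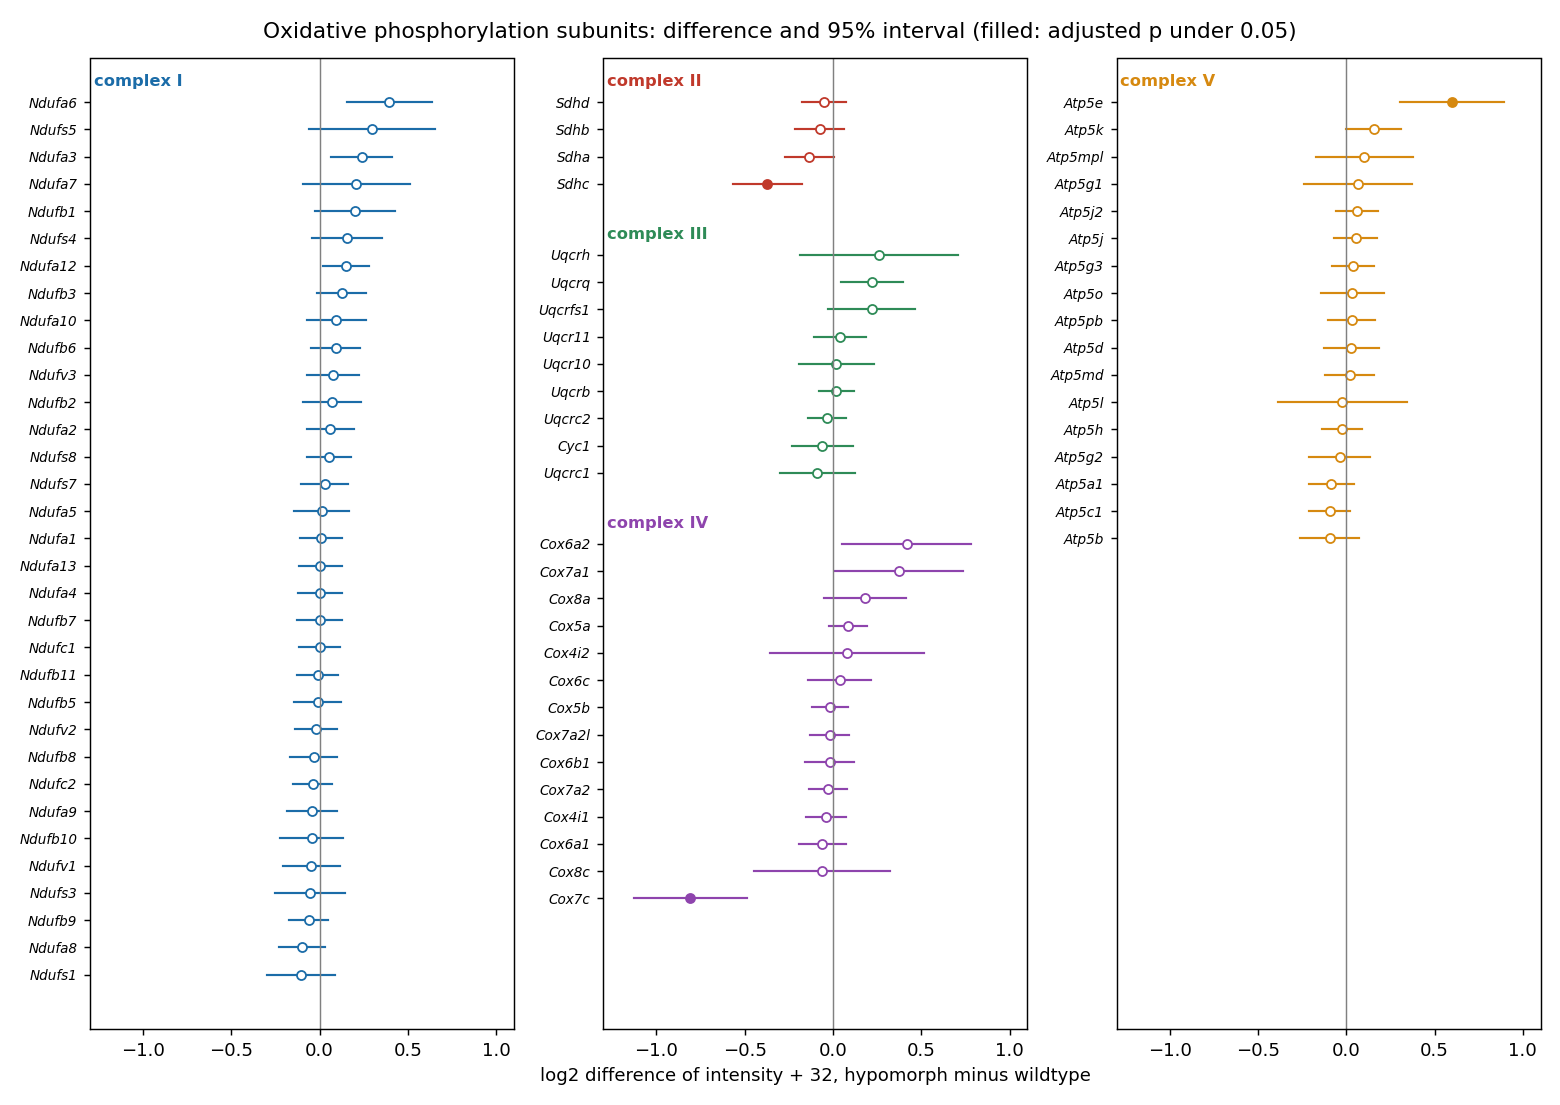
Log2 difference (hypomorph minus wildtype, log2(intensity + 32)) of each of the 77 tested subunits with its 95% interval from limma, grouped by complex; filled points have an adjusted p under 0.05. The 3 filled points are Atp5e at 0.60, Sdhc at -0.37 and Cox7c at -0.81, and most other intervals include 0.

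Promoters are shown for the called subunits that had a promoter window in RefSeq, Atp5e and Cox7c. These had the largest rise and the largest fall among the subunits. The other called subunit, Sdhc, had no window in the RefSeq set used. Sequences are the 250 bases before the transcription start from RefSeq (GRCm38.p6), both on the minus strand, at chr2:174464102-174464351 for Atp5e and chr13:86046796-86047045 for Cox7c. Capitals mark exact matches, on either strand, to CCGGAAG, a form of the site for ETS factors such as GABP, and to CCAAT. Also searched were the palindromic site of nuclear respiratory factor 1, AAGATGGCG for YY1 and TATAAA.
Atp5e: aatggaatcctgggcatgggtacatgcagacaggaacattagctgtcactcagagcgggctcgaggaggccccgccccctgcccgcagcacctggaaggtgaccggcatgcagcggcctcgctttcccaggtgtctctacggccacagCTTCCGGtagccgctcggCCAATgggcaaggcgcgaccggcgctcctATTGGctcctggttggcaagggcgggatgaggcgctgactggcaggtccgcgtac
Cox7c: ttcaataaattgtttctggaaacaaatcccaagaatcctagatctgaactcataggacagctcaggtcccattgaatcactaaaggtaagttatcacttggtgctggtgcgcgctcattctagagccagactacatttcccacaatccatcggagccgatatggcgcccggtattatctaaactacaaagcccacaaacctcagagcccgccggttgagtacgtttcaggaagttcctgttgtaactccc
The printed Atp5e sequence holds 1 ETS match and 2 CCAAT matches, and the printed Cox7c sequence holds no exact match to the 5 motifs. Variants of these motifs were not searched, so this does not show that Cox7c lacks such sites.

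Nuclear respiratory factors, GABP and YY1 are known activators of subunit genes, and the 300-base windows around the start were searched. The RefSeq promoter table held a window for 66 of the 82 subunits, and 62 of these were tested. Among the 62, CCGGAAG was found in 17 (27.4%), against 19.4% of 9338 tested genes with a window. AAGATGGCG was found in 6 (9.68%), against 3.46%, and the nuclear respiratory factor 1 site in 4 (6.45%), against 2.27%. The last 4 were Uqcrc1, Cox6a1, Atp5g2 and Atp5k, with differences of -0.089, -0.060, -0.036 and 0.15. CCAAT was in 25 (40.3%), against 42.6%, and TATAAA in 6 (9.68%), against 9.22%. Each motif was searched on both strands and counted separately, and a match does not show that a factor binds.

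Means of whole complexes were close between the 2 groups of arrays except in complex II, where they differed by -0.16. The mean log2 level over 33 complex I subunits was 12.07 ± 0.011 in hypomorph and 12.02 ± 0.019 in wildtype (SD, n = 2 each). For 17 complex V subunits it was 11.82 and 11.82 in hypomorph and 11.77 and 11.76 in wildtype. Atp5e alone had a difference of 0.60 within the complex V mean. Complex II was the one complex whose mean was lower in hypomorph, at 12.05 and 12.11, against 12.23 and 12.24 in wildtype over its 4 subunits. Within it Sdhc had -0.37, against -0.13, -0.075 and -0.050 for Sdha, Sdhb and Sdhd. Complexes III and IV had mean differences of 0.066 and 0.0090. The median difference was 0.011 for complex I, -0.10 for complex II, 0.020 for complex III, -0.017 for complex IV and 0.030 for complex V. These means and medians were not tested.

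Differences were smaller among the brighter subunits. The 44 subunits with a mean intensity of 5000 or more had differences of at most 0.15 in size, with a median size of 0.039. Over the 586 tested genes of that brightness the median size was 0.073. The 12 subunits below 1000 had a median size of 0.28, against 0.18 for the 7573 genes below 1000. Whether the arrays compress differences between very bright probe sets was not tested.

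**Figure D2:**
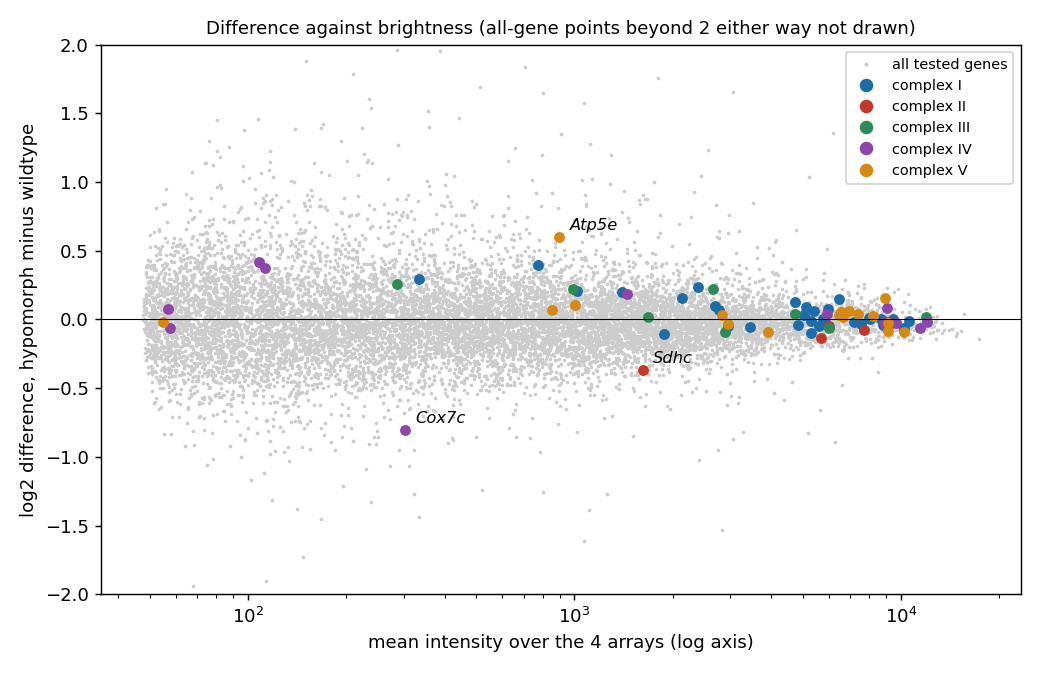
Log2 difference (hypomorph minus wildtype) against mean intensity over the 4 arrays on a log axis, for all tested genes (grey) and the subunits (coloured by complex). The subunits narrow to within 0.15 either side of 0 above an intensity of 5000, and the 3 called genes lie below 2000.

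Complex I, NADH dehydrogenase, had 33 tested subunits, of which limma called 0. At an unadjusted p under 0.05 there were 3 (9.09%), against 21.7% of all genes. The hypomorph arrays both lay above the wildtype arrays for 13 (39.4%) and both below for 4 (12.1%). Over all tested genes these shares were 23.4% and 30.0%, and the difference in shares was not tested. Its core subunits carry the flavin and the iron-sulphur clusters that move electrons to ubiquinone. The 6 tested, Ndufv1, Ndufv2, Ndufs1, Ndufs3, Ndufs7 and Ndufs8, had differences of -0.10 to 0.054, all with intervals within 0.5 of 0. The lowest belonged to Ndufs1, the largest iron-sulphur subunit, at 1749 and 1886 in hypomorph and 1922 and 1985 in wildtype (limma, adjusted p = 0.542). Most remaining complex I members are accessory subunits, which surround the core.

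The accessory subunit Ndufa6 had the largest difference in complex I. It measured 876.5 and 887 in hypomorph, against 664 and 661 in wildtype. The groups did not overlap and the arrays of each group were close, yet the difference of 0.40 (SE 0.11) missed the threshold (limma, adjusted p = 0.0781). Ndufa3, another accessory subunit, was at 2535 and 2645 in hypomorph and 2204 and 2173 in wildtype (difference 0.24, limma adjusted p = 0.123). Its second probe set gave 0.22. Ndufs5 was at 405 and 338 in hypomorph and 330 and 264 in wildtype, a difference of 0.30 with an interval from -0.059 to 0.65. At the other end Ndufa8 was at 5192 and 5042 in hypomorph and 5530 and 5431 in wildtype (-0.099), and Ndufb9 was at 9717 and 10317 in hypomorph and 10455 and 10453 in wildtype (-0.062). Neither passed the test (limma, adjusted p = 0.381 and 0.523). Ndufa4, named for complex I but now counted with complex IV, had a difference of 0.0031. Ndufb4 and the paralogue Ndufa4l2 were too dim to test, at 7.09 to 13.9 on all arrays. Each had a single probe set, and whether it reads the main transcript was not tested.

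Complex II, succinate dehydrogenase, is shared with the tricarboxylic acid cycle and pumps no protons. Sdhc anchors it in the membrane and, with Sdhd, holds its haem. Sdhc measured 1405 and 1405 in hypomorph, against 1837 and 1817 in wildtype. The groups were well apart, with a log2 difference of -0.37 (SE 0.087, limma adjusted p = 0.0473). The call lies at the edge of the threshold and was lost without each array in turn, with an adjusted p of 0.0556 to 0.20, while the difference stayed between -0.38 and -0.36. A dimmer probe set of Sdhc, not called, was at 364 and 349 in hypomorph and 454 and 433 in wildtype (-0.29, limma adjusted p = 0.245).

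The other complex II subunits gave smaller values of the same sign. The flavoprotein Sdha was at 5203 and 5619 in hypomorph and 5930 and 5950 in wildtype (-0.13, limma adjusted p = 0.255). Its other 2 tested probe sets gave -0.19 and -0.15. The iron-sulphur subunit Sdhb was at 7086 and 7912 in hypomorph and 7919 and 7859 in wildtype, so that its groups overlapped (-0.075). The second anchor, Sdhd, was at 5955 and 5859 in hypomorph and 6021 and 6217 in wildtype (-0.050), but its dimmer probe set gave 0.17, of opposite sign. None of these 3 genes passed the test (limma), and of the 4 subunits only Sdhc had an unadjusted p under 0.05.

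**Figure D3:**
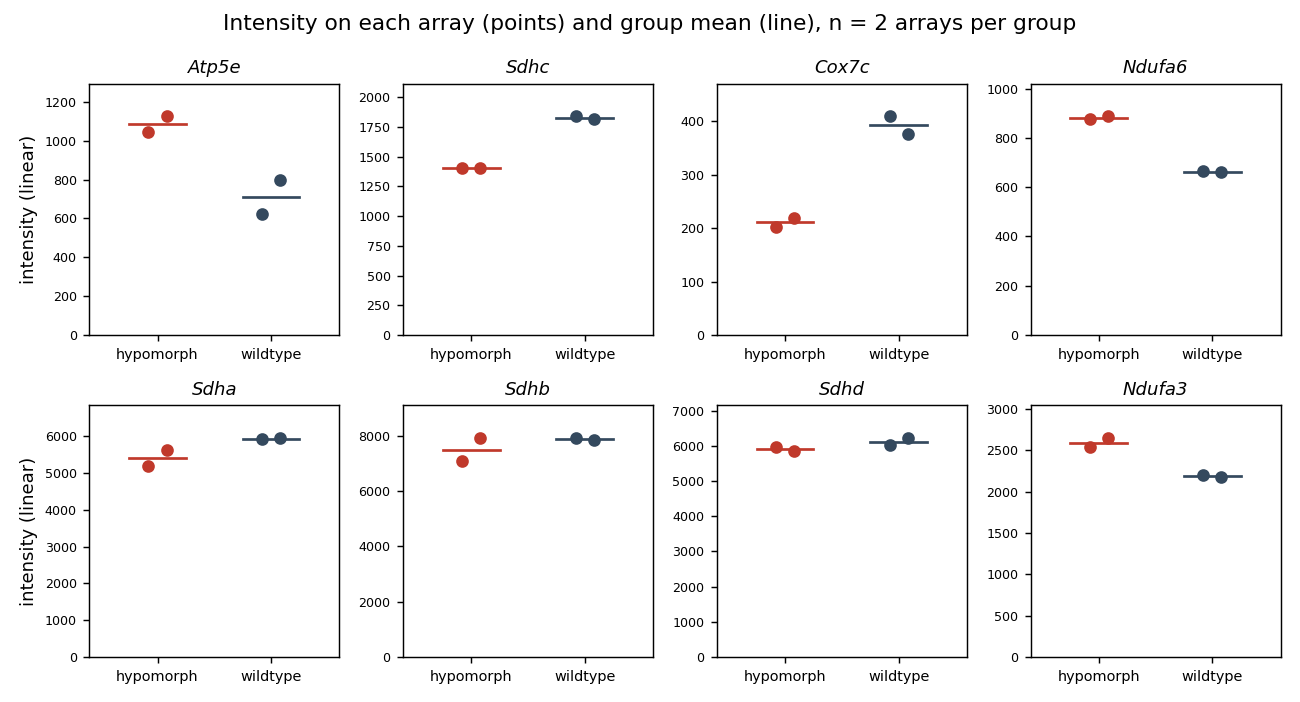
Linear intensity on each array (points, n = 2 per group) and the group mean (line) for the 3 called subunits, the other complex II subunits, Ndufa6 and Ndufa3, with each axis from 0. Hypomorph points lie above wildtype points for Atp5e, Ndufa6 and Ndufa3 and below them for Sdhc, Cox7c, Sdha and Sdhd.

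Complex III, the cytochrome bc1 complex, had 9 tested subunits, of which limma called 0. At an unadjusted p under 0.05 there was 1 (11.1%), against 21.7% of all genes. That one was Uqcrq, a small subunit of the complex, at 2809 and 2917 in hypomorph and 2550 and 2357 in wildtype (0.22, limma adjusted p = 0.154). Uqcrfs1, the Rieske iron-sulphur protein that takes electrons from ubiquinol, was at 1141 and 990 in hypomorph and 888 and 930 in wildtype (0.22). Uqcrh, the hinge protein, had overlapping groups, at 376 and 253 in hypomorph and 293 and 218 in wildtype (0.26, interval -0.19 to 0.71). The haem protein Cyc1 was at 5427 and 6372 in hypomorph and 6021 and 6246 in wildtype (-0.060). The core proteins Uqcrc1 and Uqcrc2 gave -0.089 and -0.033. Uqcrc1 overlapped between groups, at 2690 and 2894 in hypomorph and 2711 and 3253 in wildtype. Uqcrc2 was at 9089 and 9166 in hypomorph and 9197 and 9482 in wildtype.

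Complex IV, cytochrome c oxidase, held the largest difference of any subunit. Cox7c measured 203 and 219 in hypomorph, against 409 and 377 in wildtype. This was a log2 difference of -0.81 (SE 0.14, interval -1.13 to -0.49, limma adjusted p = 0.0143). It was called without 3 of the arrays in turn, but not without wildtype replicate 1 (difference -0.75, adjusted p = 0.0906). The second, dimmer probe set was at 32.9 and 50.2 in hypomorph and 60.8 and 61.2 in wildtype (-0.35, limma adjusted p = 0.309). The brighter one has the suffix _s_at, which marks probes shared by several transcripts, so its identity is less certain. Its mean over the 4 arrays, 302, was low beside Cox4i1 at 8939 and Cox8a at 1446. Whether it reads the main Cox7c transcript was not tested. No other of the 14 tested complex IV subunits was called.

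Several complex IV subunits exist as a broadly expressed form and a form found mainly in muscle or another tissue. The broad forms were bright and differed little. Cox4i1 was at 8834 and 8796 in hypomorph and 8825 and 9302 in wildtype (-0.039), and Cox7a2 at 9538 and 9527 in hypomorph and 9895 and 9553 in wildtype (-0.028). Cox6a1 was at 10536 and 11882 in hypomorph and 11581 and 11752 in wildtype (-0.060). Cox6b1 was at 8582 and 9608 in hypomorph and 9370 and 9038 in wildtype (-0.019). Cox8a was at 1671 and 1412 in hypomorph and 1360 and 1342 in wildtype (0.18, limma adjusted p = 0.361).

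The restricted forms were dim on every array. Cox6a2, the heart and skeletal muscle form of Cox6a, was at 126 and 129 in hypomorph and 95.7 and 80.0 in wildtype (0.42, limma adjusted p = 0.19). Cox7a1, the muscle form of Cox7a, was at 130 and 132 in hypomorph and 86.6 and 101.5 in wildtype (0.37, limma adjusted p = 0.231). For both, the groups did not overlap but the calls were not made, and each had an unadjusted p under 0.05. A second probe set of Cox6a2, below the brightness filter, averaged 5.51 in hypomorph and 11.6 in wildtype. Cox4i2 was at 73.7 and 45.6 in hypomorph and 47.8 and 59.9 in wildtype (0.080). Cox8c, known from testis, was at 55.3 and 55.7 in hypomorph and 67.8 and 51.7 in wildtype (-0.063). Cox6b2, Cox7b2 and Cox8b were too dim to test, at 1 to 29.1 over all arrays. The summed intensity of 18 striated muscle markers was 413 to 431 in hypomorph and 435 to 465 in wildtype, and none of the 4 tested had an unadjusted p under 0.05 in limma. Of the 18, 14 had a wildtype mean under the median of all probe sets. Myl1, Myh7, Ckmt2 and Tnnt3, picked as examples of dim markers, were at or near the lowest values on every array.

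Complex V, the ATP synthase, held the one subunit called higher. Atp5e is part of the central stalk, the rotor that turns inside the catalytic head. It measured 1047 and 1124 in hypomorph, against 623 and 797 in wildtype. The groups did not overlap, and the difference was 0.60 (SE 0.13, interval 0.31 to 0.89, limma adjusted p = 0.0379). The call was lost without hypomorph replicate 1 (adjusted p = 0.0598), hypomorph replicate 2 (adjusted p = 0.0633) and wildtype replicate 1 (difference 0.43, adjusted p = 0.181). Atp5e has a single probe set here, again with the suffix _s_at. The other central stalk subunits gave small differences. Atp5c1, the gamma subunit, was at 9668 and 10137 in hypomorph and 10855 and 10280 in wildtype (-0.093), and Atp5d, the delta subunit, had a difference of 0.028, with 0.18 on its dimmer probe set.

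The other 14 complex V subunits between them ranged from -0.094 to 0.15, and none of them was called. The catalytic subunit Atp5b was at 3779 and 3809 in hypomorph and 3827 and 4289 in wildtype (-0.094). Its partner in the head, Atp5a1, overlapped between groups, at 8498 and 9268 in hypomorph and 9230 and 9597 in wildtype (-0.085). The 3 genes of the membrane ring, Atp5g1, Atp5g2 and Atp5g3, encode the same mature protein and had differences of 0.068, -0.036 and 0.040. Atp5k, the e subunit of the membrane part, was at 9507 and 9253 in hypomorph and 9072 and 7821 in wildtype (0.15, limma adjusted p = 0.242). Atp5mpl, a small membrane subunit, was at 1153 and 933 in hypomorph and 998 and 931 in wildtype (0.10).

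Other probe sets of the same genes served as a second reading. Of the 77 tested subunits, 44 had 2 or more tested probe sets, and all probe sets of a gene agreed in sign for 26. The highest and the lowest differed by a median of 0.14 on the log2 scale, and by less than 0.25 for 40 of the 44. The largest gap, 0.46, was that of Cox7c. Of 69 dimmer probe sets 46 had a positive difference, with a median of 0.064, and limma called 0. Ndufb7 gave 0.00069 on its brightest probe set, and 0.32 on a dimmer one at 1199 and 1175 in hypomorph and 982 and 905 in wildtype. Ndufb7 was chosen after its values were seen.

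**Figure D4:**
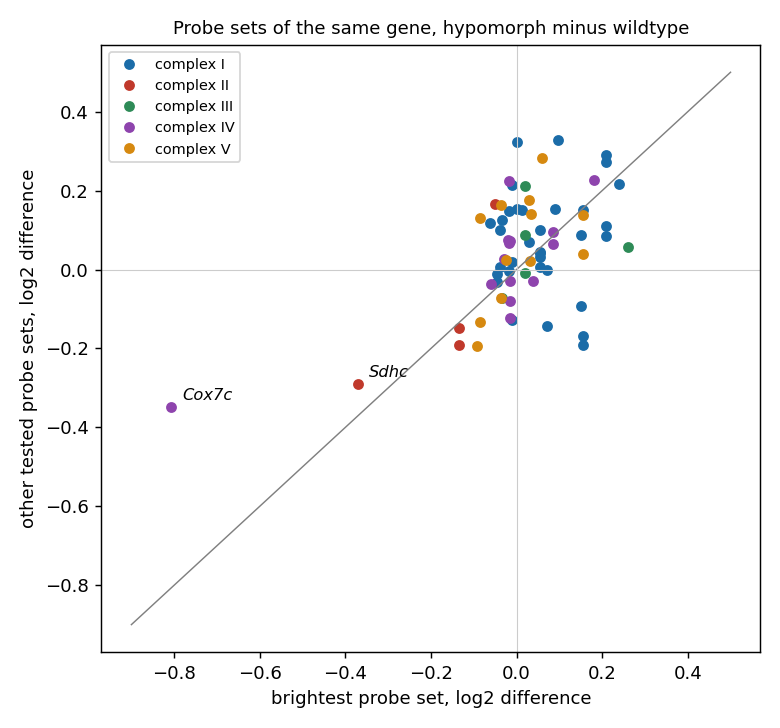
Log2 difference (hypomorph minus wildtype) of the brightest probe set of a subunit gene (horizontal) against each of its other tested probe sets (vertical), with the line of equality. Most points lie within 0.3 of 0 on both axes; Sdhc lies near the line, and Cox7c is at -0.81 and -0.35.

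Across all subunits, both hypomorph arrays lay above both wildtype arrays for 25 of 77 (32.5%) and below them for 12 (15.6%). Over all tested genes these shares were 23.4% and 30.0%. The difference between these shares was not tested. The subunits are imported into one organelle and measured on the same arrays, so they are not independent of each other.

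Genes that work with the complexes were read from lists of assembly factors, electron carriers, cycle and pyruvate dehydrogenase enzymes, carriers and regulators. As background, limma called 2.53% of all tested genes higher and 1.70% lower, and 21.7% had an unadjusted p under 0.05. Of 43 tested assembly factors, which build the complexes without staying in them, limma called 0, with 1 at an unadjusted p under 0.05 and a median of -0.0023. Of 17 genes for electron carriers and coenzyme Q synthesis it called 0, with 1 at an unadjusted p under 0.05 and a median of 0.037. Cycs, the cytochrome c that links complexes III and IV, had a difference of 0.037, and Ndufab1, the acyl carrier subunit of complex I that the symbol rule leaves out, had 0.095. Of 4 tested carriers of adenine nucleotides and phosphate and uncoupling proteins it called 0, with 1 at an unadjusted p under 0.05. That one was Slc25a3, the phosphate carrier, at 9813 and 10692 in hypomorph and 11236 and 11527 in wildtype (-0.15, limma adjusted p = 0.152).

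Enzymes of the tricarboxylic acid cycle and of pyruvate dehydrogenase, read as 1 list, had negative differences for 13 of 16, with a median of -0.056. Over all genes tested 6390 of 11577 were negative, with a median of -0.024. Limma called 0, and 3 (18.75%) had an unadjusted p under 0.05, against 21.7% of all genes. Without hypomorph replicate 2 there were 2 calls, Pdha1 and Suclg2, both lower. Pdha1, a subunit of pyruvate dehydrogenase, was at 4175 and 4675 in hypomorph and 5143 and 5020 in wildtype (-0.20). Dlat, of the same enzyme complex, went the other way, at 1610 and 1762 in hypomorph and 1370 and 1373 in wildtype (0.29).

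Regulators of mitochondrial biogenesis had the lowest median of these lists, -0.16 over 20 tested genes, of which 17 were negative. The 3 positive ones reached 0.63, while all regulators named below were negative. Limma called 1 lower and 0 higher. This was Esrrg, a nuclear receptor that activates respiratory genes in other tissues, at 247 and 335 in hypomorph and 621 and 494 in wildtype (-0.88, SE 0.17, adjusted p = 0.0237). The call was lost without hypomorph replicate 1 (-0.68, adjusted p = 0.0768) and without wildtype replicate 1 (-0.72, adjusted p = 0.11). It was also lost with no brightness filter (adjusted p = 0.108), with no intensity trend (adjusted p = 0.0933) and with the mean of its probe sets (-0.44, adjusted p = 0.0759). Another tested probe set of Esrrg read 152 and 231 in hypomorph and 291 and 264 in wildtype. Ppargc1a, the coactivator of this programme, was at 466 and 380 in hypomorph and 584 and 642 in wildtype (-0.51, limma adjusted p = 0.0781). Nrf1 was at 974 and 975 in hypomorph and 1115 and 1142 in wildtype (-0.20), and Tfam, which packages and transcribes mitochondrial DNA, at 398 and 464 in hypomorph and 498 and 486 in wildtype (-0.18). The list median was -0.063 without hypomorph replicate 1, and without hypomorph replicate 2 limma called 1 regulator higher and 2 lower. Cycs, Ndufab1, Slc25a3, Pdha1, Suclg2, Dlat, Ppargc1a, Nrf1 and Tfam were chosen after their values were seen.

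**Figure D5:**
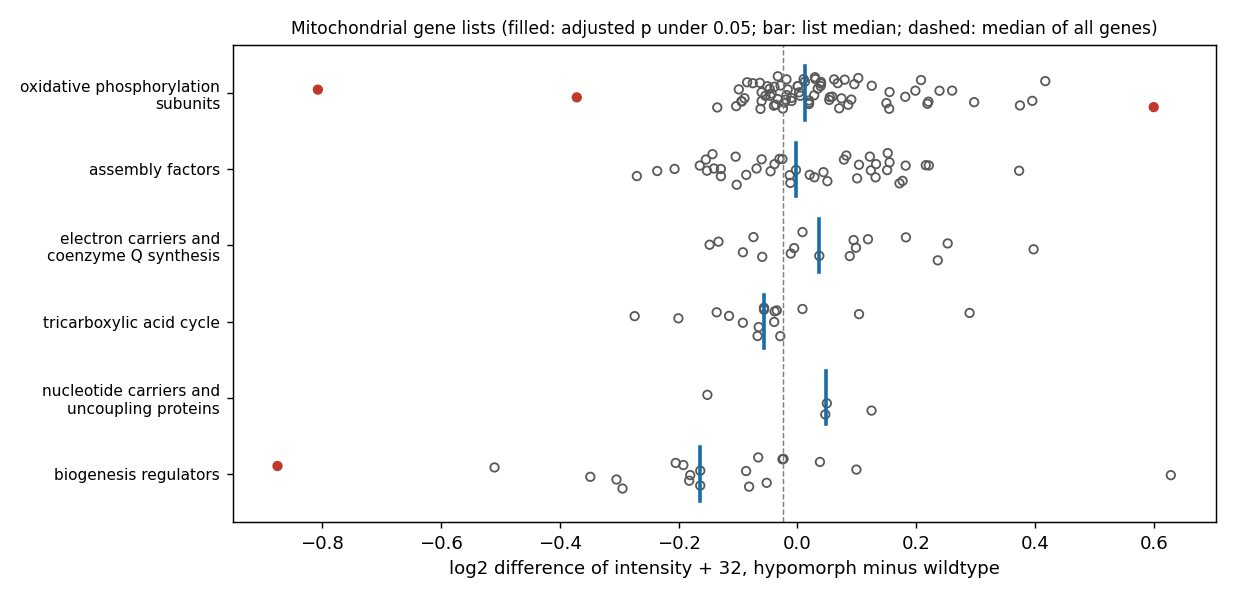
Log2 difference (hypomorph minus wildtype, log2(intensity + 32)) of each tested gene of 6 mitochondrial lists, one row per list, with the list median as a bar and the median of all genes as a dashed line. Filled points are called; they are Cox7c, Sdhc and Atp5e among the subunits and Esrrg among the regulators, whose median of -0.16 is the lowest.

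The 3 called subunits lie on different chromosomes. Atp5e is on chromosome 2, Sdhc on chromosome 1 and Cox7c on chromosome 13. Atg16l1, the altered gene, and the called regulator Esrrg are also on chromosome 1. Whether a shared chromosome bears on the Sdhc difference was not tested. Among the 20 tested genes nearest to each in the order of genes, limma called 0 for Atp5e, 0 for Sdhc and 1 for Cox7c. Over all tested genes it called 2.53% higher and 1.70% lower, so so few calls near a gene are not unusual.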

How the data were processed

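Total RNA of laser-captured cells was extracted, amplified and biotin-labelled, per the labels' protocols. The authors deposited 1 linear intensity per probe set and array; the scaling, background correction and summary method are not given in the files and labels used here. Trimmed means differed by a factor of at most 1.02 between arrays, so the values were not normalised again. Of 45101 probe sets, 64 controls were left out, 34945 carried 1 symbol in the platform annotation, 932 several and 9160 none, and only the first were named. Probe sets at or above the median mean log2(intensity + 32) of 6.32 were tested (22519) with limma 3.58.1 in R 4.3.3 (lmFit, eBayes with an intensity trend, group as the only term, residual df 2, prior df 7.81), with p-values adjusted by Benjamini-Hochberg over all of them. The procedure was tested on simulated data. The number of arrays, 2 per group, limits the precision. The subunits and lists were chosen with earlier results of these data known. Values on every array were given for the called subunits and all of complex II. In each other complex they were given for the 3 largest rises and the 3 largest falls. The tissue forms of complex IV and their broad partners were also given. Of other lists, the called regulator Esrrg was given with values, and the called marker genes were not. Some genes outside this rule were also given with values, among them the uncalled Slc25a3, Dlat, Ppargc1a, Nrf1 and Tfam. Symbols of 34741 probe sets were matched through gene IDs to a RefSeq table (GRCm38.p6), and 0 changed. That table gave chromosomes and gene order, and a separate RefSeq table of the same build gave the promoter windows. Alternatives were quantile normalisation, median centring, pseudocounts of 1 and 128, other brightness filters, no trend, a robust prior, a replicate block, the mean of a gene's probe sets, and each array left out.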

Additional observations from a re-analysis of the deposited data

How the results depend on the processing

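Over 14 alternatives, the 3 called subunits kept their direction, and Cox7c was called in 12, Atp5e in 9 and Sdhc in 6. The counts of subunits higher and lower (1 and 2) became 0 and 0 with no brightness filter, 0 and 1 with no intensity trend, and 2 and 1 with the mean of a gene's probe sets, and the lower count was 1 with quantile normalisation. With the replicate block 4 were higher and 2 lower, Ndufa6, Ndufa3 and Atp5k being added. The labels do not say what a replicate number shares, and deviations of same-numbered arrays correlated at 0.26, a hint from the data only. Without single arrays the counts ranged from 0 to 1 higher and from 0 to 1 lower. The median difference of the subunits was 0.032 with quantile normalisation, 0.040 with the mean of probe sets, and -0.0047 to 0.026 without single arrays. Over all genes, 293 higher and 197 lower became 117 and 60 with no filter, 120 and 53 with no trend, 853 and 884 with the replicate block, and 189 to 381 and 86 to 478 without single arrays. The cause was not tested. Some uncalled values near 0 changed sign. Cox6b1 was 0.0057 with quantile normalisation, and with the mean of probe sets Cox6b1 was 0.028, Sdhd 0.058 and Ndufb9 0.025. Without single arrays the values ranged from -0.15 to 0.0042 for Sdhb, -0.22 to 0.041 for Uqcrc1, -0.18 to 0.055 for Cyc1, -0.19 to 0.064 for Cox8c, -0.15 to 0.026 for Cox6a1, -0.10 to 0.062 for Cox6b1, -0.045 to 0.25 for Atp5mpl and -0.14 to 0.30 for Cox4i2. Dim subunits have only wide intervals, up to 0.45 either side.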

Other observations

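Besides the probe sets with 1 symbol, 9 carried several symbols of which at least 1 fits the naming rule, so no gene was named from them. Of these 5 were bright enough to test. Their log2 differences, hypomorph minus wildtype, ran from 0.052 to 0.28, and limma called 0, with the lowest unadjusted p at 0.0393.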
